A study of Mus musculus with 7 samples.

Results

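FRA2, JUND and SOX2 binding was examined around the 7 mouse genes that encode the subunits of the transcription factor AP-1: Fos, Fosb, Fosl1 and Fosl2 of the Fos family and Jun, Junb and Jund of the Jun family. The loci were windows of 200 to 220 kb on mouse build mm9, and every binding event of the 3 deposited event tables that lay in a window was taken, whatever its reads. This gave 322 of 137595 events: 130 of 64579 for FRA2, 120 of 46583 for JUND and 72 of 26433 for SOX2. The windows were chromosome 12 from 86.71 to 86.92 Mb for Fos, chromosome 7 from 19.79 to 19.99 Mb for Fosb, chromosome 19 from 5.35 to 5.55 Mb for Fosl1 and chromosome 5 from 32.34 to 32.56 Mb for Fosl2. For the Jun family they were chromosome 4 from 94.61 to 94.82 Mb for Jun, chromosome 8 from 87.4 to 87.6 Mb for Junb and chromosome 8 from 73.12 to 73.32 Mb for Jund.

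The data came from ChIP-seq, the sequencing of DNA precipitated with a protein, on 2 mouse cell lines derived from embryonic striatum at E14 on a 129SvEv/CD1 background, below passage 15. STHdhQ7 cells carry the genotype HdhQ7/Q7 and STHdhQ111 cells HdhQ111/Q111, both at the huntingtin gene; the numbers are the lengths of its glutamine tract, and the long form models the Huntington's disease allele. Cells were kept at 33 °C, and a shift to 39 °C, held for 2 days, stopped their division in both lines. FRA2, JUND and IgG were precipitated in each line and SOX2 in STHdhQ7 alone, which makes 7 samples, called by Q7 and Q111 below. Each sample pools its replicates 1 and 2, so each antibody has 1 value per line, no spread between replicates can be given, and each p-value compares 2 libraries and not the genotypes. Each genotype is 1 line, so line and genotype cannot be told apart.

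AP-1 is a dimer: a Fos family protein has to pair with a Jun family protein to hold DNA, whereas Jun family proteins can also pair with each other. FRA2 is the product of Fosl2 and JUND of Jund, the latter expressed at a fairly steady level in many cells, while Fos and Fosb are classic immediate early genes of neurons. Several AP-1 genes carry binding sites for AP-1 or related factors near their own start, and Jun and Fosl1 are textbook cases of AP-1 genes that AP-1 itself regulates. In the striatum, Fos and Fosb respond to dopamine and cortical input, and SOX2 is a factor of neural progenitors. The Fosl2 and Jund loci are thus the genes of the proteins that were precipitated.

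The promoter sequences of the genes are given because AP-1 is held to act on its own genes there. They are the 250 bases before the start in RefSeq on build GRCm38.p6, and coordinates of that build are not those of the events. The RefSeq table matched 6 of the 7 genes, all but Fosl1. Below are Fos (chr12:85473640-85473889, plus strand), Jun (chr4:95052223-95052472, minus strand), Fosl2 (chr5:32136222-32136471, plus strand) and Jund (chr8:70697489-70697738, plus strand), the last 2 being the genes of FRA2 and JUND. Capitals mark TGACG in Fos, TGACATCA in Jun and ACAAAG in Jund.
Fos: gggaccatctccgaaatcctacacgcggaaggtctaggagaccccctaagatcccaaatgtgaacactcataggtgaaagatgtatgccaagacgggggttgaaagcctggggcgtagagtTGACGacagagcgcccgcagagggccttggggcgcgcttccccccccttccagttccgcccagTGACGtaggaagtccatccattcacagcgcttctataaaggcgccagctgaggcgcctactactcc
Jun: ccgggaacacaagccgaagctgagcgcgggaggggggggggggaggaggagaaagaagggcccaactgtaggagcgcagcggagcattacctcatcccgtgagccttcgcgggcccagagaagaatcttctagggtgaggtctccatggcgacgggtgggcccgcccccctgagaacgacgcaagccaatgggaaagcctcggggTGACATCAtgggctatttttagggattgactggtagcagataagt
Fosl2: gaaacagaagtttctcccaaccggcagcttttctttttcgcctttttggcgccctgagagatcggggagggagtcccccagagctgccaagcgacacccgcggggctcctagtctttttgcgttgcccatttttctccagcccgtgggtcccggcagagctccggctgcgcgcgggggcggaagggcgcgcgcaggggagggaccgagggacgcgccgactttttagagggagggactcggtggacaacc
Jund: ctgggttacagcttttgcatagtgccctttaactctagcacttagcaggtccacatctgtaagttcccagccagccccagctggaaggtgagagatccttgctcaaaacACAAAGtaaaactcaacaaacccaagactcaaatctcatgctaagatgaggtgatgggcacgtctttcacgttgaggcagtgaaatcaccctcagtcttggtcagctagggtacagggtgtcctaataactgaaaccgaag

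The classic AP-1 site, searched as TGANTCA on both strands, was in 0 of the 6 promoters, against 6.75% of 32817 promoters of the same length. The full cyclic AMP response element TGACGTCA was also in 0 of 6, against 1.55% of all. TGACATCA, the form of the site known from the Jun promoter, began 45 bases before the start of Jun and stood in 2.93% of all promoters. The shorter TGACG, which overlaps the full element, stood in 3 of 6 promoters against 17.7% of all: Fos at 129 and 66 bases before the start, Fosb at 60 and Junb at 106. TGACATCA and TGACG were added to the search after the promoters were seen. Of the SOX letters, ACAAAG stood 141 bases before the start of Jund and in 16.5% of all promoters, and ACAATG was in 0 of 6 against 10.7%. The E-box CACGTG (6.02% of all) and 1 fixed spelling of the serum response element (0.0609% of all) were in 0 of 6. These are matches of letters and not sites.

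The reads behind the comparison are those assigned to events. Over all events, FRA2 had 3340554 (Q7) and 3498922 (Q111) such reads, JUND had 1660158 and 1609483, and SOX2 had 1193914. The 7 loci held 0.221% to 0.284% of these. Ratios are Q111 over Q7 after scaling by the median event present in both lines, and brackets give 95% Clopper-Pearson intervals, which cover counting error only. Calls required both a fold of 2 or more and an adjusted p under 0.05. No annotation of build mm9 was used, so events are placed by position and not as promoter, intron or exon, and gene activity was not measured. The windows also reach neighbouring sequence: in RefSeq order on GRCm38.p6, Fos lies between Tmed10 and Jdp2, Fosb between Rtn2 and Ercc1, Fosl1 between AI837181 and Ccdc85b, Fosl2 between Babam2 and Plb1, Jun between Mysm1 and Fggy, Junb between Prdx2 and Hook2, and Jund between Lsm4 and Iqcn.

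The loci differed in how many events they held. The Jund locus held 30 FRA2, 24 JUND and 17 SOX2 events. As many events were found in 0.265%, 0.414% and 0.477% of 200 kb tiles of the genome. These tiles run from the first to the last event of the respective protein on each chromosome, and include tiles without events. The windows of Fos and Jun, at 210 kb, and of Fosl2, at 220 kb, are longer than the tiles. The Fosl1 locus followed for FRA2 with 21 events, a number reached by 2.03% of tiles, and held 19 JUND and 14 SOX2 events. Fos held the fewest FRA2 and JUND events, 10 and 9, and, like Fosb, 5 SOX2 events, numbers reached by 19.3%, 14.1% and 16.4% of tiles. Jun and Junb each held 19 JUND events, as Fosl1 did. Fosl2 held 17 FRA2 and 13 JUND events, and Fosb 16 and 17.

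**Figure D1:**
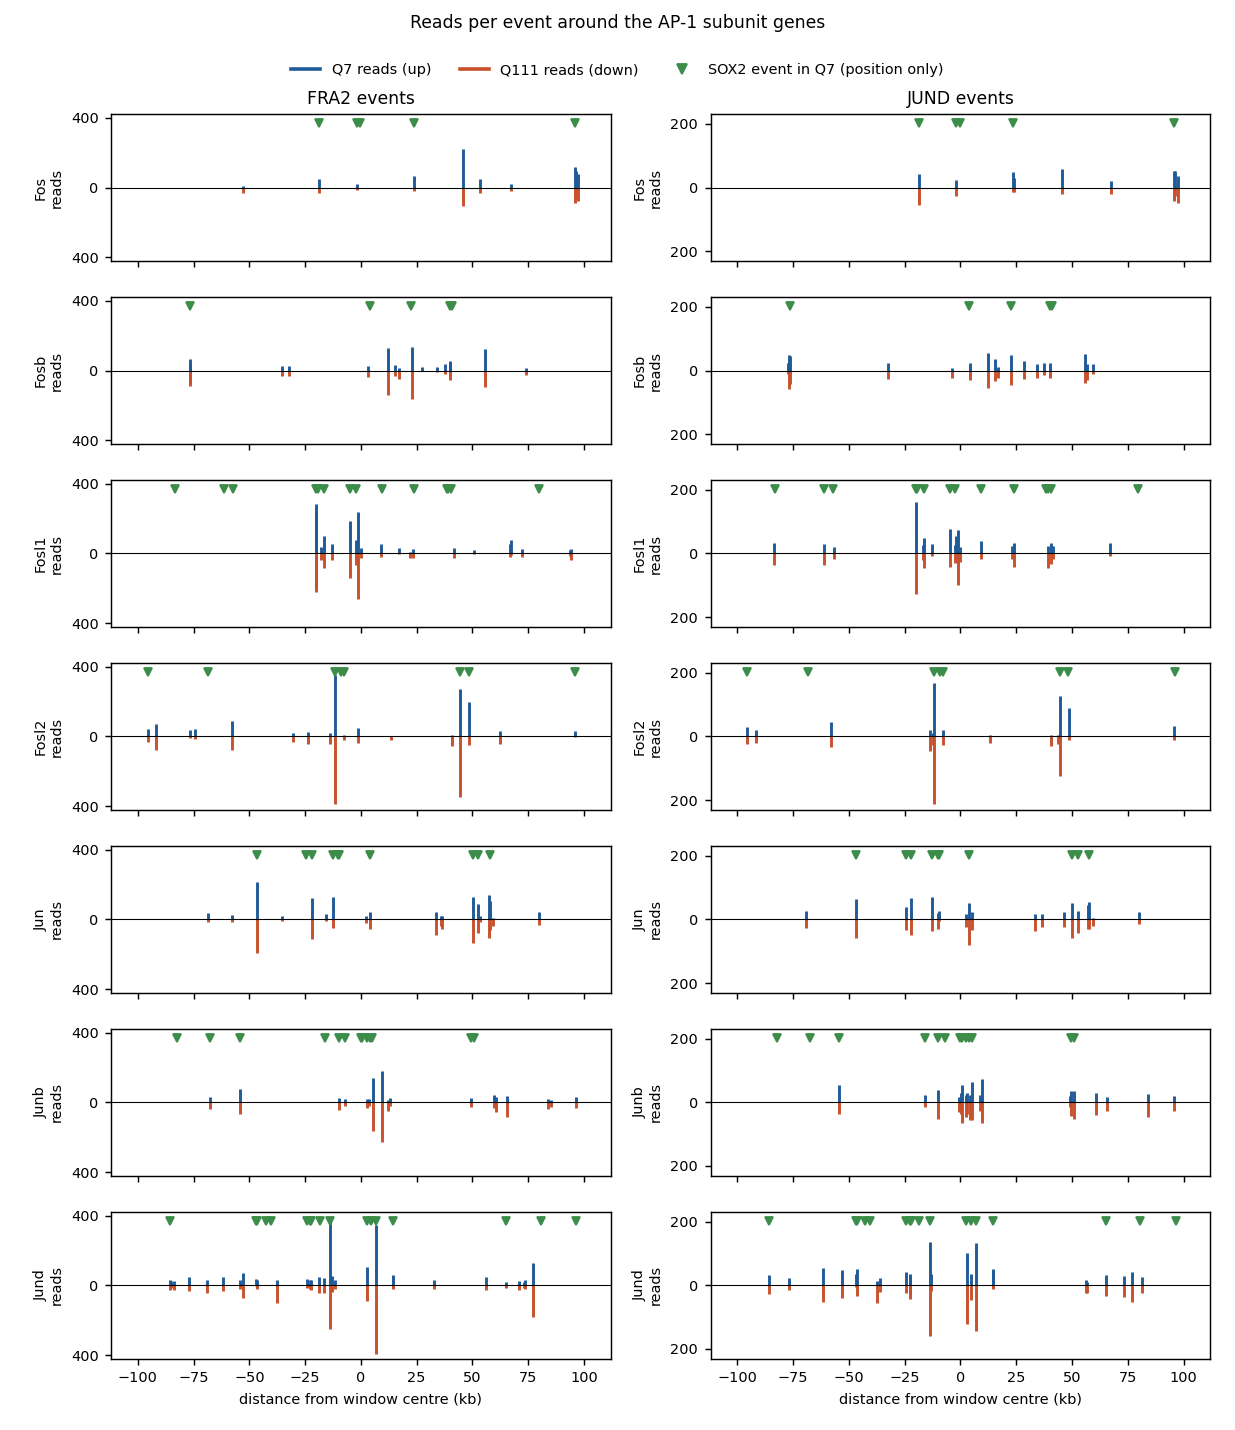
Reads per event in each locus for FRA2 (left) and JUND (right): Q7 reads are drawn upwards and Q111 reads downwards, on the vertical axis, at the event's distance in kb from the window's centre on the horizontal axis, and triangles mark the positions of SOX2 events. The Fosl2 and Jund rows hold the tallest FRA2 bars, 351 and 345 reads upwards and 386 and 392 downwards, apart from the 362.9 and 252.9 reads of another Jund event.

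Most events at the AP-1 genes were not called different between the lines, which does not show that their reads were equal. For FRA2, 13 of 130 events were called higher in Q111 (10%, against 23.3% of the whole table), 21 higher in Q7 (16.2% against 21.3%) and 96 were not called (73.8% against 55.4%). For JUND, 8 of 120 events were called higher in Q111 (6.67% against 17.4%), 15 higher in Q7 (12.5% against 23.3%) and 97 were not called (80.8% against 59.4%). Events called in either direction were thus a smaller share of the loci than of the tables, with no test of that difference. Of the calls at the loci, 38.2% of those for FRA2 and 34.8% of those for JUND were towards Q111. Over the tables, calls towards Q111 and Q7 numbered 15042 and 13755 for FRA2 and 8091 and 10835 for JUND. Scaling by the control reads in place of the median event lowered the shares at the loci to 20.5% (8 against 31 calls) and 7.14% (3 against 39). It also shifted the median log2 fold of all FRA2 and JUND events to -0.36 and -0.79. The shares of the tables under this scaling are not given, so these values do not compare the loci with all events.

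Summed over a locus, reads were lower in Q111 at Fos and Fosl1 with both antibodies and higher at Junb. At Fos, FRA2 held 737 reads in Q7 and 488 in Q111, a ratio of 0.641 (0.571 to 0.720), and JUND 370 and 267, a ratio of 0.686 (0.584 to 0.806). At Fosl1, FRA2 held 1659.5 and 1310.6 reads, a ratio of 0.765 (0.711 to 0.823), and JUND 820.1 and 697.3, a ratio of 0.809 (0.730 to 0.896). At Junb, FRA2 held 729.8 and 978.4 reads, a ratio of 1.298 (1.178 to 1.430). JUND at Junb held 636.4 and 772.2 reads, a ratio of 1.155 (1.038 to 1.284), which turned to 0.729 when scaled by control reads and to 0.948 when control reads were subtracted; the FRA2 ratio at Junb was 1.009 (0.916 to 1.11) when scaled by control reads. Counting error does not cover the spread between cultures, and the ratios were set beside those of 200 kb tiles with at least 5 events: only FRA2 at Fos passed 1.5-fold, as 15% of FRA2 tiles did towards Q7 and 17.7% towards Q111 (JUND 20.2% and 11.4%). Of these tiles, 13.2% for FRA2 and 22.3% for JUND lay at or below the ratios of Fos. At or below those of Fosl1 lay 23.6% and 37.1%, and at or above those of Junb 27.0% and 26.2%. The lower and upper quartiles of the tile ratios were 0.781 and 1.332 for FRA2 and 0.713 and 1.172 for JUND. Both Junb ratios and the JUND ratio of Fosl1 lay between these quartiles, so they did not stand apart from the tiles. Both Fos ratios and the FRA2 ratio of Fosl1 lay below the lower quartile.

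The other loci stood nearer to 1. FRA2 at Jun held 1251.8 reads in Q7 and 1131 in Q111, a ratio of 0.875 (0.807 to 0.949), and at Jund 1904.6 and 1692.7, a ratio of 0.861 (0.806 to 0.919). JUND held 665.6 and 654.9 reads at Jun, a ratio of 0.936 (0.839 to 1.044), and 1076.3 and 1043.3 at Jund, a ratio of 0.922 (0.846 to 1.005). Both JUND intervals include 1. On the same scaling the ratio over the whole table was 0.922 for JUND and 1.014 for FRA2. At Fosl2, FRA2 held 1301.9 and 1288.5 reads, a ratio of 0.958 (0.886 to 1.036), and JUND 576.3 and 618.5, a ratio of 1.021 (0.910 to 1.145). At Fosb, FRA2 held 807.3 and 850 reads, a ratio of 1.020 (0.925 to 1.125), and JUND 509.2 and 513.7, a ratio of 0.961 (0.848 to 1.088). For Fosl2 and Fosb no interval excluded 1; scaling by control reads put the FRA2 ratio of Fosb at 0.793 and the JUND ratio of Fosl2 at 0.645.

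The authors' mark of presence depends on the reads of each line, so keeping events marked in both lines can leave out events that differ. The effect of this choice on the ratios was not tested. Over those events the FRA2 ratio was 0.976 (0.904 to 1.054) at Jund, and the JUND ratio was 0.906 (0.743 to 1.105) at Fos, 0.937 (0.823 to 1.067) at Fosl1 and 1.083 (0.965 to 1.215) at Jund, intervals that include 1. Without its event with the most reads, the JUND ratio was 0.885 (0.788 to 0.993) at Jun and 0.895 (0.815 to 0.982) at Jund, intervals below 1. Both intervals include 0.922, the ratio of the whole JUND table.

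**Figure D2:**
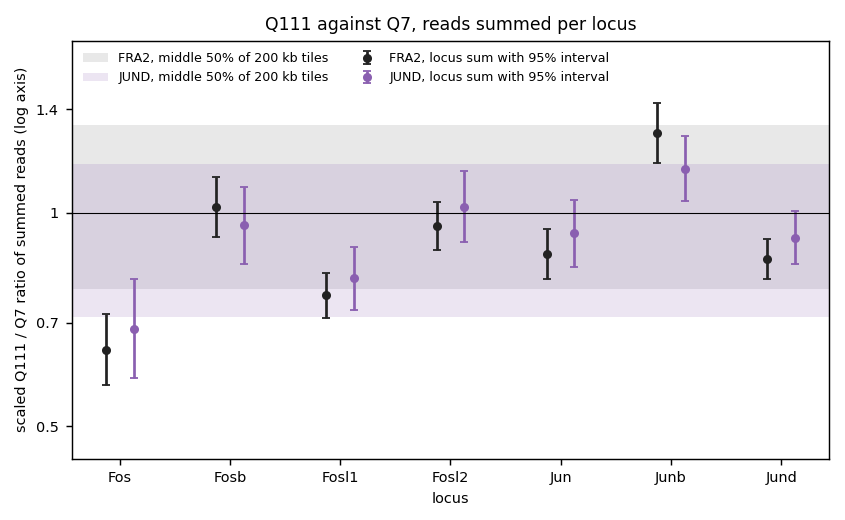
Ratio of summed reads, Q111 over Q7, for each locus on a log axis, with FRA2 and JUND as separate points and bars for the 95% Clopper-Pearson interval of counting error. Both points lie below 1 at Fos (0.641 and 0.686) and Fosl1 (0.765 and 0.809) and above 1 at Junb (1.298 and 1.155). The JUND point of Junb turned to 0.729 and 0.948 when control reads were used for scaling or subtracted. The JUND ratio of Fosl1 and both ratios of Junb lay between the quartiles of the 200 kb tiles. These were 0.781 and 1.332 for FRA2 and 0.713 and 1.172 for JUND.

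The deposited control reads also differed between the lines, most at Jund, Junb and Fosl1. At Fos the control ratio of Q111 over Q7 was 1.54 for FRA2 and 1.62 for JUND, against 1.33 and 1.66 over the whole tables. Over all FRA2 events the mean control signal was 4.30 per event in Q7 and 5.71 in Q111, but at Jund it was 5.49 and 13.4, at Junb 4.81 and 9.87 and at Fosl1 5.27 and 9.75. In the JUND table the means over all events were 4.32 and 7.19, against 5.48 and 14 at Jund, 4.21 and 13.9 at Junb and 4.91 and 13.6 at Fosl1. The difference was thus larger at these 3 loci than over the tables. Control ratios as high were found, for FRA2, in 4.20% of tiles at Jund, 11.1% at Junb and 17.8% at Fosl1, and for JUND in 12.1%, 2.69% and 7.90%. The part of the control reads in the differences at Junb, Fosl1 and Jund was not tested. Which library gave the control reads is not stated in the sources used here.

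**Figure D3:**
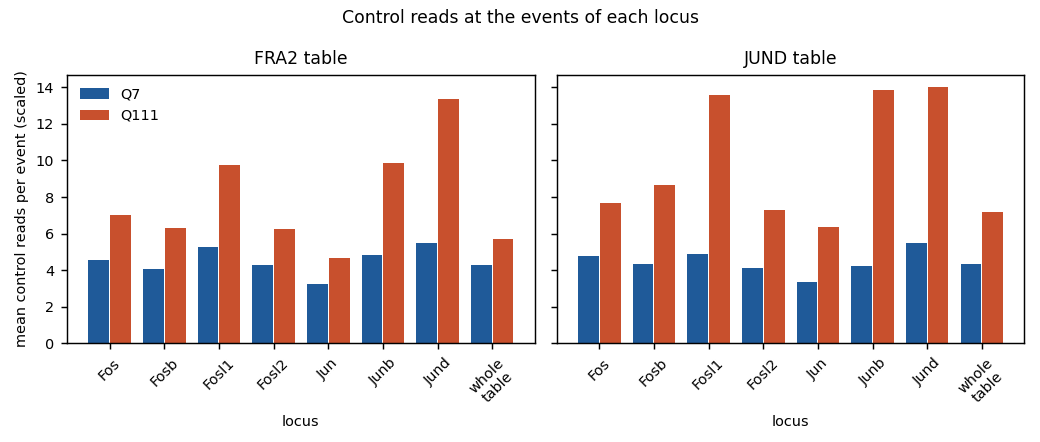
Mean deposited control reads per event in Q7 and in Q111 for each locus and for the whole table, FRA2 and JUND shown separately. The Q111 values of Jund (13.4 and 14), Junb (9.87 and 13.9) and Fosl1 (9.75 and 13.6) stand above those of the whole tables (5.71 and 7.19).

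The Fos locus carries the best known immediate early gene, whose protein is a dimer partner of the Jun proteins. Its largest FRA2 event, at position 86860713, held 224 reads in Q7 and 103 in Q111, 2.24-fold higher in Q7 (1.77 to 2.86). JUND at 86860712 held 59 and 20 reads, 3.05-fold higher in Q7 (1.84 to 5.44). Both proteins were thus called higher in Q7 there, and 1 FRA2 event made up 26.7% of the locus's FRA2 reads. Without that event the FRA2 ratio of the locus was 0.727.

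A second Fos site was also called for both proteins. FRA2 at 86838622 held 69 reads in Q7 and 20 in Q111, 3.50-fold higher in Q7 (2.14 to 6.19). JUND at 86838633 held 50.1 and 14.8, 3.48-fold higher in Q7 (1.94 to 6.72). SOX2, in Q7, had an event of 49 reads at 86838604, 18 bp from the FRA2 event. The JUND event at 86838958, 325 bp away, was also called higher in Q7, with 29.9 and 13.2 reads, as was that at 86911336 with 52.5 and 26.8. The 1 event called higher in Q111 was FRA2 at 86762097, with 8 and 33 reads, 3.82-fold (1.81 to 10.01). The largest JUND event, at 86796302, held 44 and 55 reads and was not called. A group of FRA2 events within 1591 bp held 119.2 and 85.8 reads at 86910832, 93.8 and 68.2 at 86911319 and 79 and 78 at 86912423; none of the 3 was called. In all, 9 of 10 FRA2 events and 6 of 9 JUND events of the Fos locus leaned to Q7, while 50.04% of FRA2 events and 45.3% of JUND events over the tables leaned to Q111.

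The Fosb gene encodes FosB and its short form ΔFosB, which builds up in the striatum after repeated stimulation. Its largest FRA2 event, at 19912706, held 134 reads in Q7 and 162 in Q111, a ratio of 1.17 (0.926 to 1.48), and the JUND event at the same position 49 and 46, a ratio of 0.894 (0.584 to 1.36). The next FRA2 event, at 19902327, held 131 and 138 reads, and the largest JUND event, at 19902352, 54 and 54. Neither protein was called different at the most occupied sites of Fosb.

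Smaller Fosb events differed. FRA2 at 19907020 held 13 reads in Q7 and 46 in Q111, 3.34-fold higher in Q111 (1.82 to 6.91). FRA2 at 19917447 held 21 and 5 reads, 4.04-fold higher in Q7 (1.59 to 14.7). FRA2 at 19930079 held 42.7 and 16.9 reads, 2.56-fold higher in Q7 (1.46 to 4.88), whereas JUND at 19930097 held 22.8 and 24.0. That difference between the proteins did not pass the test (exact hypergeometric test, adjusted p = 0.499). FRA2 at 19927512, with 38 and 17 reads, was the third event called higher in Q7. The 1 JUND event called, at 19886230, held 7 and 22 reads, 2.85-fold higher in Q111 (1.23 to 8.29).

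Fosl1 encodes FRA1, the closest relative of FRA2. The 2 largest FRA2 events of its locus lay 63 bp apart, at 5429978 with 284.7 reads in Q7 and 222.2 in Q111 and at 5430041 with 243.8 and 195.6. Between them lay the largest JUND event, at 5430006 with 160.8 and 128.2 reads, and a SOX2 event of 57 reads at 5430025. The first FRA2 event was 1.32-fold higher in Q7 (1.11 to 1.59), as was the JUND event (1.04 to 1.68), short of the 2-fold limit. FRA2 at 5448848, with 236 and 264 reads, and JUND at 5448863, with 72.9 and 99, leaned the other way and were not called.

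Every event called at Fosl1 was higher in Q7, 5 of 21 for FRA2 (23.8%, against 21.3% of the table) and 4 of 19 for JUND (21.1% against 23.3%). These shares are near those of the tables; calls towards Q111 were 0, against 23.3% and 17.4%. The largest difference was FRA2 at 5517069, with 76.8 reads in Q7 and 9.2 in Q111, 8.23-fold higher in Q7 (4.42 to 20.05). JUND at 5517078 held 34.5 and 7.7 reads, 4.49-fold higher in Q7 (2.03 to 11.2). In Q111 the deposited control reads at these 2 events, 16.6 and 17.6, exceeded the precipitated reads. FRA2 at 5467131 held 33 and 4 reads, 7.69-fold higher in Q7 (3.03 to 33.1), and had no JUND event within 6 kb. Its control reads were 13.2 in Q7 and 11.4 in Q111, the latter also above the precipitated reads. FRA2 at 5459210, with 57 and 21 reads, and JUND at 5459204, with 40 and 17, were called together. The remaining FRA2 calls were 5516641, with 54.2 and 18.8 reads, and 5500556, with 22 and 5 and control reads of 5.2 in Q111. The remaining JUND calls were 5437008, with 30 and 9, and 5447948, with 56.2 and 26.9.

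The Fosl2 locus, of the gene for FRA2, held 1 of the strongest events of both tables. FRA2 at 32438231 held 351 reads in Q7 and 386 in Q111, a ratio of 1.06 (0.919 to 1.23), and ranked in the top 0.423% of FRA2 events by reads. JUND at 32438217 held 167.7 and 213.5 reads, a ratio of 1.21 (0.985 to 1.49), in the top 0.298% of JUND events, and SOX2 at 32438216 held 60. Neither AP-1 protein was called different at this shared site. Its neighbour at 32436141, 2090 bp away, was called higher in Q111 for FRA2, with 20 and 45 reads, and for JUND at 32436157, with 19 and 47.

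Within 7860 bp of the Fosl2 locus, 3 shared sites gave 3 different results. The first, FRA2 at 32490606, held 7 reads in Q7 and 54 in Q111, 7.04-fold higher in Q111 (3.39 to 19.5), and JUND at 32490579 held 4 and 31, 6.66-fold (2.61 to 28.7). The second, 3977 bp on, held the larger numbers of 272 and 345 FRA2 reads at 32494583 and 126 and 124 JUND reads at 32494602, and was called for neither. The third, FRA2 at 32498466, held 197 and 48 reads, 4.20-fold higher in Q7 (3.08 to 5.94). JUND there, at 32498477, held 89 and 12 reads, 7.53-fold higher in Q7 (4.25 to 15.7). The first and the third site were thus called in opposite directions by both proteins. The SOX2 event beside the third held 50 reads in Q7.

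Fosl2 also held shared sites near the lower limit of reads in 1 line. FRA2 at 32463480 held 1 read in Q7 and 22 in Q111, 14.5-fold (3.44 to 879), and JUND at 32463389 held 3 and 21.6, 6.01-fold (2.10 to 36.4). FRA2 at 32545927 held 32 and 3 reads, 9.59-fold higher in Q7 (3.45 to 56.2), and JUND at 32545921 held 33 and 12, 2.82-fold (1.46 to 6.15), with a SOX2 event of 64 reads at 32546066. The wide intervals come with the few reads. FRA2 alone was called higher in Q7 at 32373335, with 39 and 10 reads, and at 32375464, with 44 and 14, where no JUND event lay within 15 kb. JUND alone was called higher in Q111 at 32493785, with 6 and 23 reads.

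The Jun gene encodes c-Jun, the classic dimer partner of Fos. The largest FRA2 event of its locus, at 94668293, held 215 reads in Q7 and 195 in Q111, a ratio of 0.879, and JUND at 94668296 65 and 58; neither was called. The site at 94702406 was called for FRA2, with 129 and 51 reads, 2.60-fold higher in Q7 (1.87 to 3.69). JUND at 94702427 held 69 and 35, 2.06-fold higher in Q7 (1.36 to 3.21), so close to the limit that the call ended with unscaled reads, with scaling by total reads and with control reads subtracted. A SOX2 event of 39 reads lay 26 bp from the FRA2 position.

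Jun held 4 FRA2 calls of 19 events in each direction (21.1% each, near the table's 23.3% towards Q111 and 21.3% towards Q7). Among those higher in Q111, 94748547 with 43 and 90 reads, 94750920 with 16.9 and 36 and 94751403 with 20.1 and 56 lay within 2856 bp of each other. The fourth, 94774290, held 8 and 37 reads, 4.27-fold (2.05 to 11.1), together with JUND at 94774267, with 4 and 21, 4.54-fold (1.68 to 20.01). Besides 94702406, those higher in Q7 were 94699420 with 32 and 12 reads, 94679641 with 22 and 7 and 94646370 with 34 and 17. The largest JUND event, at 94718942, held 50 and 82 reads, 1.55-fold higher in Q111 (1.08 to 2.26), short of the 2-fold limit. JUND at 94705310 held 26.4 and 5.3 reads, 4.88-fold higher in Q7 (2.07 to 18.2). It lay 55 bp from the SOX2 event with the most reads of all the loci, 112.9 at 94705255, and 2904 bp from the nearest FRA2 event.

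Junb encodes JunB, which is known to temper c-Jun. At its largest FRA2 event, 87509625, FRA2 held 178.9 reads in Q7 and 227.8 in Q111, a ratio of 1.23 (1.01 to 1.51), and JUND at 87509646 74.2 and 66.4, a ratio of 0.852. FRA2 at 87505190 held 142 and 163 reads. Neither large site was called, and the locus had no call towards Q7 for either protein under the main scaling, against 21.3% and 23.3% of the tables. Calls towards Q111 were 3 of 17 FRA2 events (17.6%, against 23.3% of the table) and 1 of 19 JUND events (5.26% against 17.4%). FRA2 was called higher in Q111 at 87512062 with 11 and 48 reads, 4.08-fold (2.16 to 9.02), at 87565465 with 36 and 82, 2.19-fold (1.47 to 3.36), and at 87583954 with 18 and 40. JUND was called at 87504067, with 21.8 and 56.7 reads, 2.44-fold higher in Q111 (1.48 to 4.23). The control reads at 87504067 were 3.0 in Q7 and 13.2 in Q111. Leaning to Q111 were 13 of 17 FRA2 and 14 of 19 JUND events of Junb, against 50.04% and 45.3% over the tables.

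Jund, the gene for JUND itself, held large events in both lines. FRA2 at 73226853 held 345 reads in Q7 and 392 in Q111, a ratio of 1.10 (0.950 to 1.28), in the top 0.423% of the table. JUND at 73226856 held 132 and 143.9 reads, a ratio of 1.04 (0.814 to 1.32), and SOX2 at 73226854 held 28. FRA2 at 73206243 held 362.9 and 252.9 reads, 1.48-fold higher in Q7 (1.26 to 1.746), and JUND at 73206245, the largest JUND event of the locus, 135 and 158, a ratio of 1.11 (0.879 to 1.41). None of these was called, being short of the 2-fold limit or of the adjusted p. The difference between the 2 proteins at 73206243 had the smallest adjusted p of all pairs at the loci and missed the threshold (exact hypergeometric test, adjusted p = 0.0974).

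Calls at Jund came at smaller events. FRA2 at 73182451 held 31 reads in Q7 and 100 in Q111, 3.09-fold higher in Q111 (2.07 to 4.84), and JUND at 73182456 15 and 55, 3.41-fold (1.94 to 6.65). Here the control reads were lower in Q111, at 10.8 and 5.2 in the FRA2 table. FRA2 at 73173048 held 33.9 and 4.2 reads, 7.56-fold higher in Q7 (3.13 to 34.0), and JUND at 73172952 34.1 and 5.0, 6.61-fold (2.78 to 23.4), with a SOX2 event of 54.3 reads 5 bp from the JUND position. FRA2 at 73234376, with 58.2 and 19.6 reads, and 73234549, with 51.8 and 14.4, lay 173 bp apart and were both called higher in Q7. So were JUND at 73234370, with 50.8 and 12.2 reads, and 73234613, with 44.2 and 9.8. Events this close share reads and are not independent, and in Q111 their control reads of 14.2 to 20.1 were near or above the precipitated reads.

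With an assumed dispersion of 0.05 between cultures, a spread the pooled samples cannot supply, 20 of the 34 FRA2 calls and 11 of the 23 JUND calls stood. The matching shares over all events are not given, so these counts do not set the loci apart from the tables. All 4 FRA2 and all 4 JUND calls of Jund stood, as did 6 of 7 and 3 of 6 at Fosl2 and 4 of 5 and 1 of 4 at Fosl1. Those at Jund include the neighbouring FRA2 events 73234376 and 73234549 and JUND events 73234370 and 73234613, which are not independent. At Fos 2 of 3 FRA2 and 2 of 4 JUND calls stood, and the FRA2 call at 86860713 ended (exact beta-binomial adjusted p = 0.0657). At Jun 2 of 8 FRA2 calls (94702406 and 94774290) and 1 of 3 JUND calls (94705310) stood, at Junb 87512062 for FRA2 alone and at Fosb 19907020 for FRA2 alone. Scaling by control reads lowered every log2 fold, by 0.363 for FRA2 and 0.663 for JUND. It ended 5 FRA2 and 5 JUND calls, all towards Q111, a direction that follows from the scaling itself. For FRA2 they were 94748547 and 94750920 of Jun, 87565465 and 87583954 of Junb and 32436141 of Fosl2. For JUND they were 32436157 and 32493785 of Fosl2, 94774267 of Jun, 87504067 of Junb and 19886230 of Fosb. The call of JUND at 86911336 of Fos ended with unscaled reads, with total reads and with control reads subtracted. For FRA2, the call at 94748547 of Jun ended with total reads, that at 94646370 of Jun with unscaled reads, and those at 94748547 and 94679641 of Jun, 87583954 of Junb and 32436141 of Fosl2 with control reads subtracted.

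The authors' mark of presence showed a further asymmetry, largest at Jund. Of the 30 FRA2 events of Jund, 18 were marked present in Q7 alone, 12 in both lines and 0 in Q111 alone, against 26.7%, 47.6% and 25.7% of the table. Of the 18, 15 were not called different by reads, with means of 29.7 in Q7 and 21.9 in Q111 while the mean control reads were 5.07 and 14.6. For JUND, 13 of 24 were marked in Q7 alone (54.2%, against 38.4% of the table), 8 in both lines (33.3% against 37.1%) and 3 in Q111 alone (24.4% of the table). Of the 13, 10 were not called, with mean reads of 34.0 and 27.3 and control reads of 5.08 and 15.2. Whatever their mark, 26 of 30 FRA2 events (86.7%) and 20 of 24 JUND events (83.3%) of Jund were not called, against 55.4% and 59.4% of the tables. The uncalled counts thus do not set events marked in Q7 alone apart from the other events of Jund. In these uncalled events marked in Q7 alone, the mean control reads were higher in Q111. How many events marked in Q7 alone were uncalled over the tables is not given. At Fosl1 and Fos, marks in Q7 alone also outnumbered those in Q111 alone. They made up 38.1% and 40% of FRA2 events (26.7% of the table) and 52.6% and 44.4% of JUND events (38.4%). Of the events marked in Q7 alone at Fosl1, 3 of 8 for FRA2 and 6 of 10 for JUND were not called. For Fos it was 3 of 4 and 1 of 4. In the order Q7 alone, both lines and Q111 alone, the marks at Fosl1 were 8, 12 and 1 of 21 FRA2 events and 10, 8 and 1 of 19 JUND events. At Fos they were 4, 5 and 1 of 10 and 4, 5 and 0 of 9.

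FRA2 and JUND were compared directly at the 83 sites where an event of each was the other's nearest within 100 bp. An event of the other protein lay within 100 bp of 84 of the 130 FRA2 events (64.6%, against 55.3%) and of 83 of the 120 JUND events (69.2%, against 75.6%). The log2 folds of the pairs had the same sign at 64 of the 83 (77.1%, against 84.8% of 35176 pairs). No pair differed between the proteins by the exact hypergeometric test with Benjamini-Hochberg adjustment, against 0.216% of all pairs, and 5 had an unadjusted p below 0.05, against 8.32% of all. Both proteins were called higher in Q111 at 5 sites (3 at Fosl2, 1 at Jun and 1 at Jund; 15.1% of all pairs) and higher in Q7 at 10 (2 at Fos, 2 at Fosl1, 2 at Fosl2, 1 at Jun and 3 at Jund; 17.4% of all pairs). The Jund sites at 73234376 and 73234549 lie 173 bp apart and share reads, so they are not independent. At Fosb and Junb no site was called for both. Across the 83 pairs Pearson's r of the log2 folds was 0.858, given as a description of sites that share their libraries. The JUND reads of these sites came to 54.6% of the FRA2 reads in Q7 and 54.5% in Q111.

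**Figure D4:**
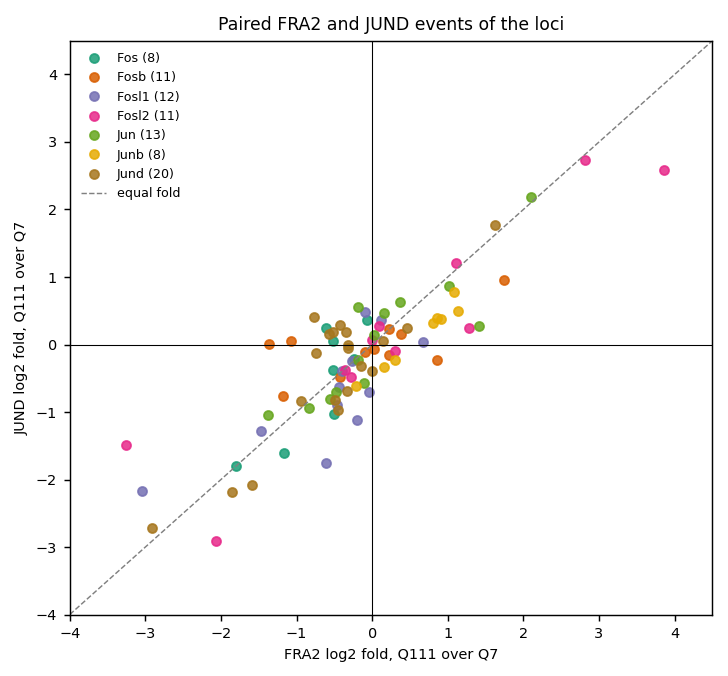
FRA2 log2 fold (horizontal) against JUND log2 fold (vertical), Q111 over Q7, for the 83 paired sites, with the locus given by colour. Points lie along the diagonal, with 64 of 83 in the quadrants of equal sign, and the Fosl2 sites reach furthest towards Q111 for both proteins.

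SOX2, mapped in Q7 alone, allowed no comparison of the lines. Of its 72 events at the loci, 51 (70.8%, against 69.9% of all SOX2 events) lay within 100 bp of a FRA2 or JUND event: 33 near both, 14 near JUND alone and 4 near FRA2 alone. Within 1 kb it was 64 of 72 (88.9%, against 86.4%). At Jun all 10 events lay within 100 bp, and at the other loci 60.0% to 70.6% did. The SOX2 events of the loci were of ordinary size, with a median of 28 reads against 33 in the table. The largest at each locus were 112.9 reads at Jun (94705255), 104.7 at Jund (73173430), 69 at Fosl1 (5490463), 64 at Fosl2 (32546066), 60 at Fos (86910921), 55 at Junb (87503922) and 33 at Fosb (19930088). Conversely, 56 of the 130 FRA2 events (43.1%, against 35.7%) and 74 of the 120 JUND events (61.7%, against 50.3%) had a SOX2 event within 1 kb.

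SOX2 reads beside AP-1 events of different size are given for 5 sites, chosen after their values were seen. The Jun event of 112.9 SOX2 reads lay beside 26.4 JUND reads in Q7, whereas the Jund event of 28 SOX2 reads lay beside 345 FRA2 and 132 JUND reads. The Fosl2 event of 60 SOX2 reads at 32438216 lay beside 351 FRA2 and 167.7 JUND reads, and the Fosl1 event of 57 at 5430025 beside 243.8 and 160.8. At Jund, the event of 104.7 SOX2 reads lay 3 bp from a FRA2 event with 29.1 reads in Q7 and 23.8 in Q111 and 23 bp from a JUND event with 50.9 and 33.0, neither of them called.

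**Figure D5:**
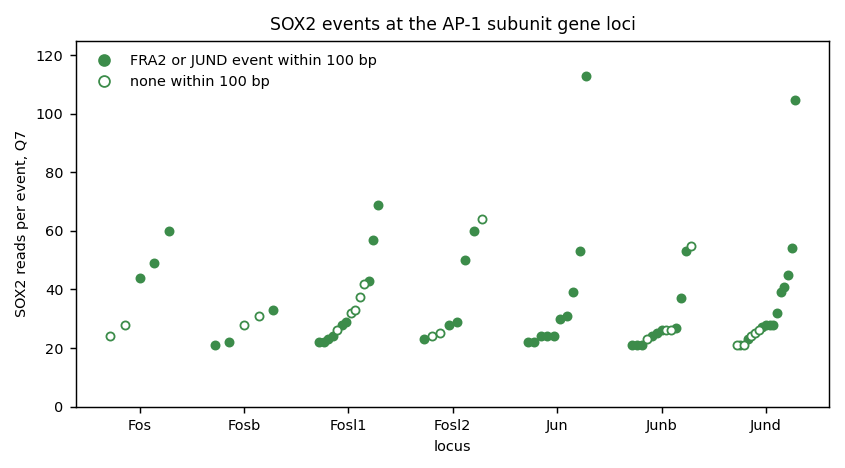
SOX2 reads in Q7 for each event of the loci, with filled points for events within 100 bp of a FRA2 or JUND event and open points for the others. All 10 points of Jun are filled, and the highest points are those of Jun (112.9 reads) and Jund (104.7 reads).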

How the data were processed

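FRA2, JUND, SOX2 and IgG ChIP-seq samples were grouped by their titles, 7 samples with replicates pooled. Bowtie 0.12.7 and build mm9 are named in the submitters' processing notes. The settings of the event caller were not given in the sources used here. Columns headed IP hold reads per event; the deposited values can be fractional, so they are in effect expected counts and were rounded for tests. The deposited control column is a signal, control reads that the spacing of low values shows to be scaled. The deposited q-value, as −log10, and the authors' present mark were used for alternatives and description. There were 22 further value columns not used, and no IgG table was used.

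Each FRA2 and JUND event was compared between lines with a two-sided exact binomial test (smaller tail doubled) of the Q111 share of reads, with the expected share from the median log2 ratio over events present in both lines (0.05 for FRA2, 0.07 for JUND). Benjamini-Hochberg adjustment ran over each whole table. Calls needed a fold of 2 or more and an adjusted p under 0.05, with a pseudocount of 0.5 reads. FRA2 and JUND pairs within 100 bp were tested on their 4 read numbers by a hypergeometric test, exact and two-sided, in place of the minimum-likelihood form of Fisher's test. Locus sums carry 95% Clopper-Pearson intervals and no test. An alternative with an assumed dispersion of 0.05 used the exact beta-binomial tail. The script was tested on simulated data.

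The members, lists and windows were chosen with earlier results of these data known. Events named are, for each locus and antibody, the one with the most reads, up to 2 calls per direction with the interval farthest from 1, the largest SOX2 event and pairs called for both proteins; the others named in the text were chosen after their values were seen. A planned count around other AP-1 family genes (Jdp2, Batf, Atf3, Maf and relatives) needs an mm9 annotation and was not made. Python 3.11.15, numpy 2.4.6, scipy 1.17.1, pandas 2.3.3 and matplotlib 3.10.9 were used.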

Additional observations from a re-analysis of the deposited data

How the results depend on the processing

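No paired analysis was possible because each group is 1 pooled sample; for the same reason none could be left out. Of 85 alternative values of the main counts and shares, 64 stayed within the limits set. Scaling by summed control reads left 8 FRA2 and 3 JUND events higher in Q111 and 39 JUND events higher in Q7, gave 0 loci with an interval wholly above 1 for either protein and 7 wholly below 1 for JUND, and turned the ratio of Fosb for FRA2 to 0.793 and those of Fosl2 and Junb for JUND to 0.645 and 0.729. Subtracting control reads gave 24 JUND events higher in Q7, 0 JUND loci with an interval above 1 and a Junb ratio of 0.948. A fold limit of 3 left 7 FRA2 events higher in Q111 and 13 higher in Q7, and 5 and 9 for JUND. An assumed dispersion of 0.05 between cultures left 7 and 13 for FRA2 and 3 and 8 for JUND. A minimum of 40 reads left 3 JUND events higher in Q111. Shares over the whole tables are not set beside these counts, so they do not compare the loci with all events. The 2 JUND loci whose interval lay below 1 became 4 without the event with the most reads and 0 with events marked present in both lines. The SOX2 share near an AP-1 event was 43.1% within 50 bp and 88.9% within 1 kb. The cause of these changes was not tested, other than that stricter limits keep fewer events. Among the other values, 524 of 582 stayed the same. For an event this means that it stayed called or stayed uncalled, and for a locus ratio that it stayed within its main interval. Of the rest, 29 events lost their call, 2 gained one, 23 locus ratios moved out of the interval and 4 reversed.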
